A study of Mus musculus with 20 samples.

Results

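Hepatic gene expression was compared between diabetic mice fed phloridzin, with both doses pooled, and diabetic mice fed the plain diet. The 15 arrays of these mice were chosen by their labels from the 20 arrays of the series. They comprised 10 phloridzin arrays, 5 at 0.1% and 5 at 0.5% of the diet by label, and 5 arrays of diabetic mice without phloridzin, called STZ here. All were livers of male BALB/c mice that were 6 weeks old on arrival. Every one of these mice had received streptozotocin intraperitoneally at 185 mg/kg, and each had a non-fasting blood glucose of 330 to 590 mg/dL before the diets began. Both diets were AIN93G, with or without phloridzin, for 14 days. Each group held 6 mice kept 3 to a cage, of which 5 had an array, and the labels do not tie arrays to cages. Total RNA of 1 mouse was hybridised to each Affymetrix array. The untreated mice were not used, so every value below compares diabetic livers with diabetic livers.

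Streptozotocin kills the beta cells of the pancreas and leaves the animal with little insulin. Phloridzin is a glucoside of apple and related plants that blocks the sodium-glucose cotransporters of the gut (Slc5a1, SGLT1) and kidney (Slc5a2, SGLT2), so that less glucose is absorbed and more is lost in urine. In an insulin-poor liver, genes of glucose output and fat burning are typically high and genes of fat synthesis low, and lowering blood glucose without insulin is a way to ask which of these follow glucose itself.

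Signal here is the deposited intensity of a probe set, a linear brightness scaled alike on every array, and differences are given as phloridzin minus STZ in log2 of the signal plus 16. Folds are likewise those of the signal plus 16, so for weak genes they are smaller than the folds of the signal itself. The median signal per array was 11.2 to 17.1, and a gene whose group means were both at or under 17.1 was read as near background. Liver identity was plain on every array. Alb, serum albumin, had signals of 10820.5 to 34074 on phloridzin arrays and of 8661 to 14370.4 on STZ arrays, and all 10 measured hepatocyte markers lay above background. The array of 0.1% phloridzin mouse 4 stood apart: its spike-in control bioB read 971 against 128 to 242 on the others, bioD read 9793 against 1816 to 2947, and its Alb signal was the 34074 above. Among STZ arrays, mouse 1 stood apart in many metabolic genes, as described further on. For many of the differences below the value without 1 of these arrays is given as well.

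No gene was called different between phloridzin and STZ. Of 12946 genes tested with limma, 0 reached an adjusted p under 0.05 (percent called 0), and the smallest adjusted p was 0.261. At an unadjusted p under 0.05 there were 520 genes, 4.02% of those tested, with 314 higher (2.43%) and 206 lower (1.59%) in phloridzin livers. The split into higher and lower depended on scaling and on the filter for weak genes. Of such genes 60.4% were higher with the deposited scaling, against 42.7% after quantile normalisation and 24.8% after centring each array on its median. With the deposited scaling and a filter at the 60th percentile, 205 were higher and 201 lower (50.5% higher).

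The differences were also small in size on the scale used. The median difference over all genes was 0.01 on the log2 scale, with 52.2% of genes above 0, and the median size regardless of sign was 0.08. At least a 1.5-fold difference was seen for 30 genes, 19 higher and 11 lower, and a 2-fold one for 1 gene. The 95% interval of the difference was taken before any correction for multiple testing. It left out a change of 1.5-fold in either direction for 11475 genes (88.6%) and of 2-fold for 12827 genes (99.1%). As said above, these are folds of the signal plus a constant, which are smaller than those of the signal itself for weak genes. For weak genes the interval can therefore leave out such a fold even where the signal itself changed by more. For the middle gene the interval reached 1.20-fold either side of its estimate. The p-values set each difference against the spread between mice of these groups and treat the mice as independent. Mice shared cages, and since the labels do not tie arrays to cages, cage could not be taken into account.

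**Figure D1:**
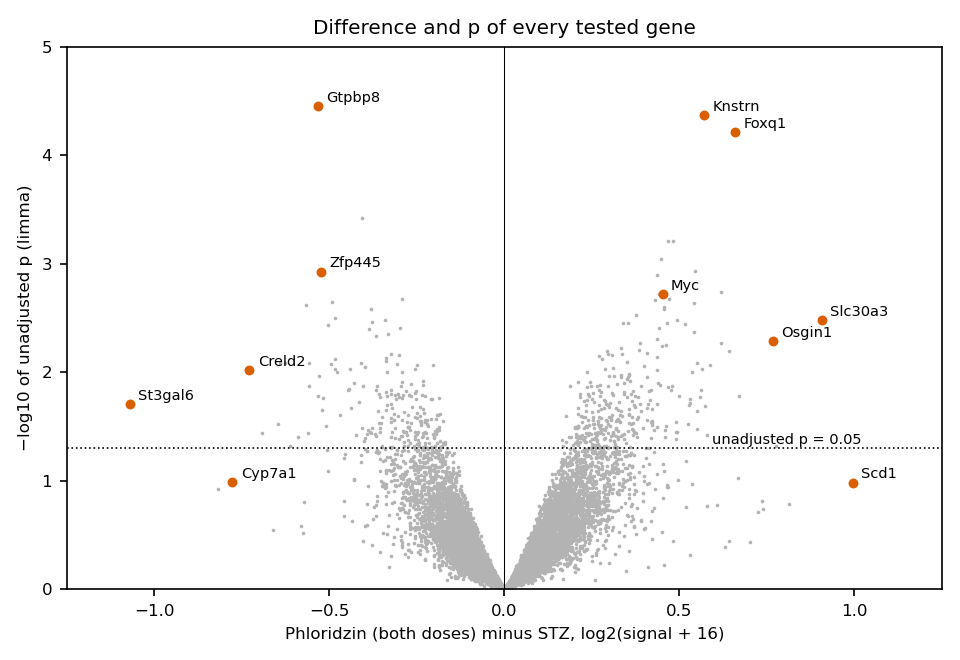
Difference (phloridzin at both doses minus STZ, log2 of signal plus 16) on the horizontal axis and −log10 of the unadjusted limma p on the vertical axis, 1 grey point per gene for 12946 genes. Gtpbp8, Knstrn and Foxq1 stand at the top, with an adjusted p of 0.261 each, and the dotted line marks an unadjusted p of 0.05.

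The 3 genes of smallest p were Gtpbp8, Knstrn and Foxq1, each at an adjusted p of 0.261. Gtpbp8, a GTP-binding protein, had signals of 78.1, 76.5, 68.7, 68.7 and 55.0 in 0.1% phloridzin livers and of 49.4, 75.4, 71.3, 78.5 and 65.3 in 0.5% phloridzin livers, against 116, 100.3, 107, 113 and 93.8 in STZ livers. Every phloridzin liver lay below every STZ liver, and the doses covered the same range. The log2 difference was −0.53 ± 0.10 (SE), or 1.45-fold lower (unadjusted p = 3.48e-05). Without STZ mouse 1 it was −0.51, and without 0.1% phloridzin mouse 4 it was −0.53. Gtpbp8 has 2 further probe sets, with means of 25.4 and 12.8 in phloridzin livers against 26.5 and 12.0 in STZ livers, and their differences were −0.04 and 0.04.

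Foxq1, a forkhead transcription factor, had signals of 69.3, 65.6, 53.9, 68.2 and 59.0 in 0.1% phloridzin livers and of 45.3, 54.4, 57.3, 96.4 and 84.5 in 0.5% phloridzin livers, against 40.05, 31.0, 27.6, 36.0 and 40.2 in STZ livers. The groups again did not overlap, with the highest levels in mice 4 and 5 of the 0.5% group. The difference was 0.66 ± 0.13 (SE), or 1.58-fold higher (unadjusted p = 6.06e-05), and its second probe set differed by 0.44. Knstrn, a protein of the mitotic spindle, had a lowest, median and highest signal of 10.01, 13.7 and 23.3 in phloridzin livers against 2.36, 5.63 and 7.02 in STZ livers. Its groups did not overlap, but both means, 15.3 in phloridzin livers and 5.00 in STZ livers, were near background. All its STZ signals lay under the 8.34 at which genes were filtered, so Knstrn was kept only through its phloridzin arrays. Its other 4 probe sets differed by −0.21 to 0.11.

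The 20 genes of smallest p, with 13 higher and 7 lower in phloridzin livers, had both dose means on the same side of STZ in all 20. For 17 of them beyond the 3 above the adjusted p was 1 when rounded, and the mean in STZ livers was at or under background in 6. Among the lower ones, Zfp445, a zinc finger protein that guards genomic imprints, had a lowest, median and highest signal of 534, 736 and 1103 in phloridzin livers against 975, 1004 and 1239.5 in STZ livers. Only mouse 3 of the 0.5% group lay above the STZ median, and all 3 probe sets of Zfp445 were lower, by −0.52, −0.40 and −0.12. Gfpt1, the rate-limiting enzyme of the hexosamine pathway that makes UDP-N-acetylglucosamine from fructose 6-phosphate, had 134, 184 and 279 in phloridzin livers against 200.2, 256 and 405 in STZ livers. STZ mouse 1 held the 405, and without it the difference of −0.57 ± 0.16 (SE, unadjusted p = 0.00241) was −0.43 (unadjusted p = 0.0126). Of the 6 probe sets of Gfpt1, 3 were lower, and the mean over all 6 differed by −0.16. The sets not used were weak, with means of 2.66 to 21.7. Them7, of the thioesterase superfamily, averaged 289 ± 31.0 in phloridzin livers and 388 ± 47.0 in STZ livers (SD). Slc30a5, a zinc transporter, averaged 323 ± 21.9 in phloridzin livers and 400.0 ± 44.7 in STZ livers (SD). Gtf2e1, a subunit of the general transcription factor TFIIE, and Ripor2, an inhibitor of RhoA, were the remaining lower genes, by −0.49 and −0.39. The other 3 probe sets of Ripor2, with means of 6.33 to 12.3, differed by 0.05 to 0.15, and the mean over its probe sets by −0.03 (unadjusted p = 0.625).

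Among the higher ones, Myc, a transcription factor of growth, had a lowest, median and highest signal of 19.8, 32.9 and 41.5 in phloridzin livers against 15.1, 19.3 and 23.5 in STZ livers. The 2 groups overlapped between 19.8 and 23.5, and the difference was 0.45 ± 0.12 (SE, unadjusted p = 0.00189). Icam1, an adhesion molecule for leukocytes, had 64.1, 103 and 122 in phloridzin livers against 48.1, 74.3 and 83.4 in STZ livers. Mouse 3 of the 0.1% group was the 1 phloridzin liver below the STZ median, and the difference was 0.44 ± 0.12 (SE). Runx1, a transcription factor of blood cells, averaged 20.7 ± 5.23 in phloridzin livers and 10.5 ± 3.37 in STZ livers (SD), but its other 5 probe sets, all with means under 10 in both groups, differed by −0.15 to 0.08. Lsm11, which takes part in histone mRNA processing, averaged 36.2 ± 7.85 in phloridzin livers and 21.3 ± 5.61 in STZ livers (SD), without overlap, and its second probe set differed by 0.03. The other higher genes were Arhgap32, Sptbn4, Enkd1, Adcyap1r1 (the receptor of the peptide PACAP), Tmem131l, Ap1g2 and Sntb2, by 0.43 to 0.62 on the log2 scale. Sptbn4, with means of 14.5 in phloridzin livers and 5.23 in STZ livers, and Enkd1, with 15.1 and 7.25, were near background. Their STZ means were under the filter of 8.34, so both were kept only through their phloridzin arrays. Further probe sets of Arhgap32, Adcyap1r1, Tmem131l and Sntb2 differed by −0.08 to 0.12.

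**Figure D2:**
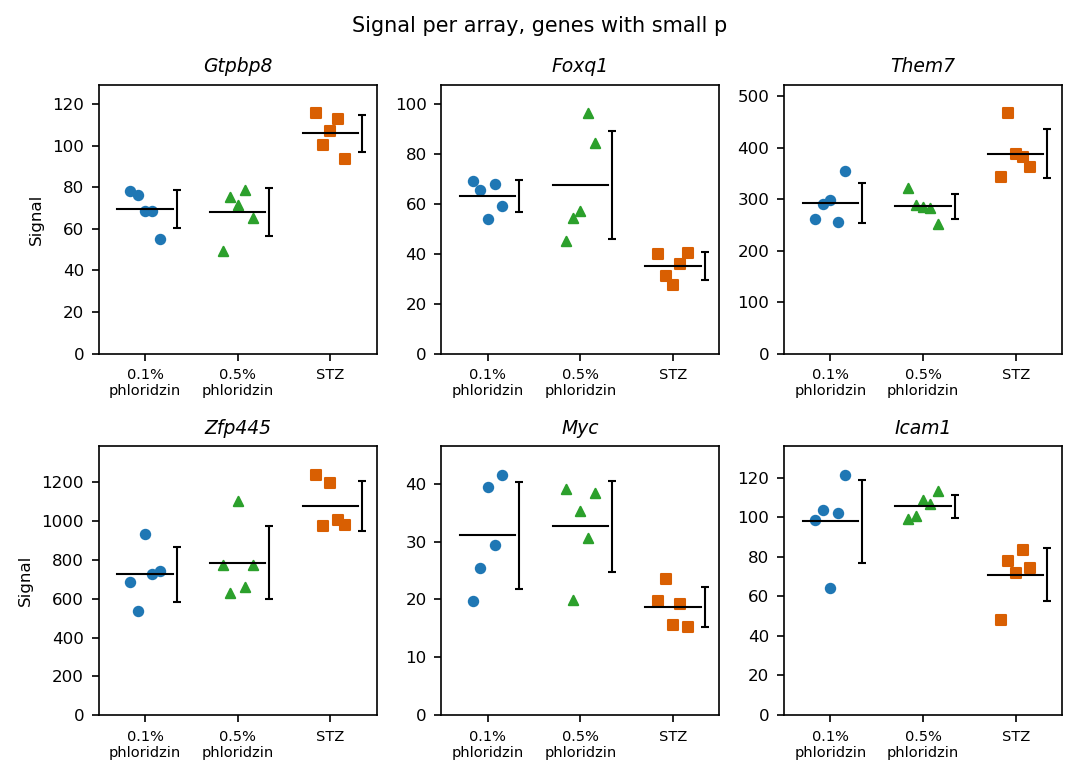
Signal (linear axis from 0) of 6 genes with small p on each array, with 0.1% phloridzin as circles, 0.5% phloridzin as triangles and STZ as squares. The long bar is the mean and the error bar its SD over 5 mice; Gtpbp8 and Foxq1 separate phloridzin from STZ livers completely, and Zfp445, Myc, Icam1 and Them7 overlap at the edges.

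Groups without any overlap were found for 8 genes, 0.0618% of those tested, 5 with phloridzin above STZ (0.0386%) and 3 below (0.0232%). Gtpbp8, Ripor2 and Hdhd2 lay below, and Foxq1, Knstrn, Lsm11, Tcirg1 and Aplp2 lay above. Of these, Knstrn passed the filter only through its phloridzin arrays, as said above. Tcirg1, a subunit of the vacuolar proton pump, averaged 189.9 ± 6.51 in phloridzin livers and 165 ± 11.9 in STZ livers (SD). Aplp2, a relative of the amyloid precursor protein, ranged over 1630.0 to 1802 in phloridzin livers and over 1292 to 1609 in STZ livers, and all 5 of its probe sets were higher. Hdhd2 ranged over 216 to 252 in phloridzin livers and over 260.4 to 296 in STZ livers, while its second probe set, under 10 in both groups, differed by 0.22.

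St3gal6, Slc30a3 and Osgin1 are described for the size of their differences and were chosen after their values were seen; other genes, Scd1 among them, differed by as much. St3gal6, a sialyltransferase, was the 1 gene that differed at least 2-fold, by −1.07 ± 0.42 (SE, unadjusted p = 0.0195). Its signal ranged over 4.98 to 115 in phloridzin livers and over 60.4 to 212 in STZ livers. Its other 4 probe sets, weak with means of 1.10 to 20.7, differed by 0.01 to 0.11. Slc30a3, a zinc transporter, differed by 0.91 ± 0.27 (SE), with 29.0 to 82.6 in phloridzin livers and 2.81 to 46.5 in STZ livers. Osgin1, an oxidative stress response gene, differed by 0.77 ± 0.24 (SE), with 304 to 896 in phloridzin livers and 198 to 588 in STZ livers. None of the 3 had an adjusted p under 1 when rounded.

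The transporters that phloridzin acts on had weak signals in liver. Slc5a1 averaged 12.4 ± 5.25 in phloridzin livers and 13.3 ± 6.59 in STZ livers (SD), near background in both. Slc5a2 averaged 35.3 ± 19.4 in phloridzin livers and 25.6 ± 11.02 in STZ livers (SD), a difference of 0.27 with an interval from −0.20 to 0.74. That difference was 0.15 without STZ mouse 1, 0.15 without 0.1% phloridzin mouse 4 and 0.03 without both, and its second probe set differed by −0.14. Slc2a2, the GLUT2 transporter through which hepatocytes exchange glucose with blood, had 3722, 3789, 4169, 3855 and 4015 in 0.1% phloridzin livers, 4307, 3851, 3819, 4194 and 4439 in 0.5% phloridzin livers, and 4219, 3874, 3878, 3977 and 4058 in STZ livers. Its difference was 0.00 ± 0.07 (SE), and the interval from −0.15 to 0.15 left out 1.5-fold in either direction. Of the 10 sugar transporters measured, 0 had an unadjusted p under 0.05.

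No gene of glucose output passed the test. Pck1, the first committed enzyme of gluconeogenesis, averaged 6461 ± 1735 in phloridzin livers and 6218 ± 676 in STZ livers (SD), with a difference of 0.01 and an interval from −0.35 to 0.38. G6pc, the phosphatase that releases free glucose, averaged 2939 ± 875 in phloridzin livers and 3024 ± 701 in STZ livers (SD). Ppargc1a, a coactivator of gluconeogenic genes, differed by −0.15 ± 0.28 (SE), and Igfbp1, a FoxO target held down by insulin, by 0.20 ± 0.51 (SE). Without STZ mouse 1 these differences were −0.38 for Ppargc1a and −0.28 for Igfbp1, and those of Pck1 and G6pc were −0.05 and −0.20. Without 0.1% phloridzin mouse 4 that of Pck1 was −0.06. Txnip, which carbohydrate-sensing ChREBP induces when glucose is high, averaged 787 ± 223 in phloridzin livers and 768 ± 208 in STZ livers (SD), with an interval from −0.42 to 0.46. Its difference was 0.02, or 0.12 without STZ mouse 1 and −0.01 without 0.1% phloridzin mouse 4. Of 18 gluconeogenesis genes, 14 of glycolysis and fructose use and 15 of glycogen, 0 had an unadjusted p under 0.05, and the list medians were −0.05, 0.02 and −0.03.

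Among 20 genes of insulin signalling and FoxO targets, 2 were lower at an unadjusted p under 0.05 (4.02% of all genes had such a p in either direction). Pik3r1, the regulatory subunit of phosphoinositide 3-kinase, averaged 254 ± 40.2 in phloridzin livers and 338 ± 102 in STZ livers (SD), and its difference of −0.36 was −0.23 without STZ mouse 1 (unadjusted p = 0.143). Foxo3, a transcription factor that insulin keeps out of the nucleus, averaged 262 ± 54.6 in phloridzin livers and 346 ± 97.8 in STZ livers (SD), and its relative Foxo1 averaged 338 ± 65.8 in phloridzin livers and 391 ± 63.8 in STZ livers. Without STZ mouse 1, 2, 3 or 4 the count was 1, and over 28 settings it ran over 0 to 3.

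Fat synthesis genes had large estimates with wide errors, and none passed the test. Scd1, the desaturase that makes monounsaturated fatty acids, had 12327, 9615, 4177, 6734 and 1237 in 0.1% phloridzin livers and 1828, 12014, 6846, 8815 and 4851 in 0.5% phloridzin livers, against 12604, 4078, 1743, 928 and 1929 in STZ livers. STZ mouse 1 held the highest of all 15 values, while the other 4 STZ livers lay within the phloridzin range or, for mouse 4, under it. The difference was 1.00 ± 0.58 (SE, unadjusted p = 0.104), and without STZ mouse 1 it was 1.54 (unadjusted p = 0.0109). Fasn, fatty acid synthase, had a lowest, median and highest signal of 204, 714 and 3252 in phloridzin livers against 289.7, 369 and 1169 in STZ livers. Its difference of 0.73 ± 0.54 (SE, unadjusted p = 0.193) was 1.08 without STZ mouse 1 (unadjusted p = 0.067). Acacb, the mitochondrial acetyl-CoA carboxylase, lay above the STZ median in all 10 phloridzin livers, by 0.52 ± 0.26 (SE, unadjusted p = 0.0661). Srebf1, the transcription factor of this pathway, differed by 0.10 ± 0.29 (SE), or by 0.32 without STZ mouse 1. Of 25 fatty acid and triglyceride synthesis genes, 0 had an unadjusted p under 0.05, 19 lay above 0, and the median was 0.10, or 0.20 without STZ mouse 1, where 3 had such a p.

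Among fat burning and bile acid genes none passed the test either. Cpt1a, which admits fatty acids to mitochondria, averaged 2459.8 ± 306 in phloridzin livers and 2789 ± 92.1 in STZ livers (SD), a difference of −0.19 ± 0.09 (SE, unadjusted p = 0.059). Cyp4a14, a fatty acid hydroxylase and PPARα target, differed by 0.41 ± 0.84 (SE), which became −0.76 without STZ mouse 1. Pdk4, which blocks pyruvate oxidation, differed by 0.09 ± 0.26 (SE) and the hepatokine Fgf21 by 0.19 ± 0.32 (SE). These became −0.05 for Pdk4 and 0.35 for Fgf21 without STZ mouse 1. Cyp7a1, the rate-limiting enzyme of bile acid synthesis, had 155, 218, 803, 689 and 803 in 0.1% phloridzin livers and 1702, 264, 671, 523 and 1309.7 in 0.5% phloridzin livers, against 1087, 1138, 1589, 574 and 800.4 in STZ livers. The 3 lowest values were in phloridzin livers, and so was the highest. Its difference was −0.78 ± 0.45 (SE, unadjusted p = 0.103). Of 37 fatty acid oxidation, 20 tricarboxylic acid cycle and 45 oxidative phosphorylation genes, 0 had an unadjusted p under 0.05, with medians of −0.03, −0.01 and 0.02. Abcc2, a canalicular export pump, was the 1 of 31 bile acid genes with such a p (3.23%, against 4.02% of all genes). It differed by 0.21 ± 0.09 (SE). Nnmt, which methylates nicotinamide, differed by −0.40 ± 0.43 (SE), or by −0.73 without STZ mouse 1, and Pnpla3, a lipase of lipid droplets, was near background at 13.0 in phloridzin livers and 10.6 in STZ livers.

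**Figure D3:**
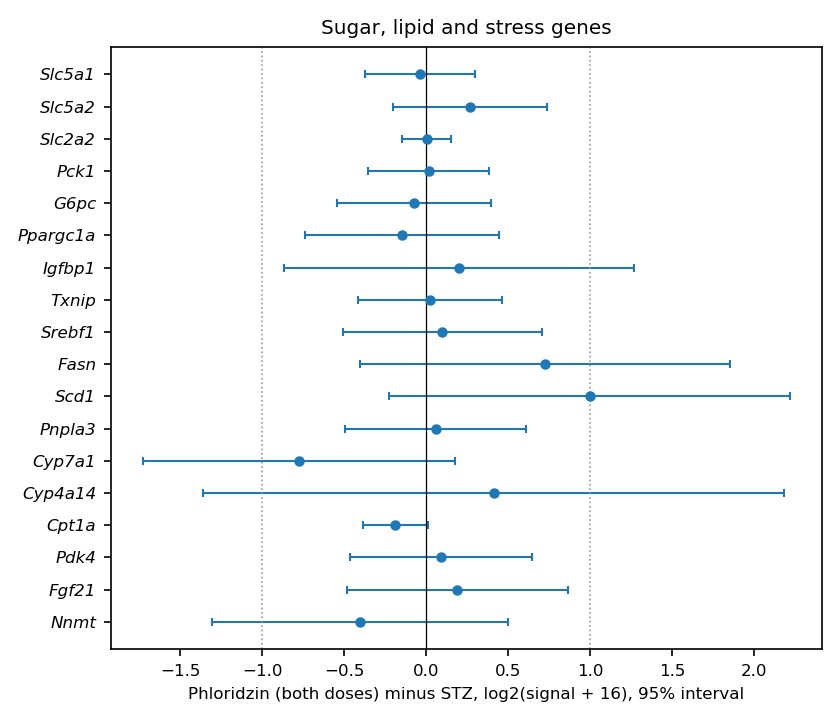
Difference (phloridzin at both doses minus STZ, log2 of signal plus 16) with its 95% interval for 18 genes of sugar transport, glucose output, fat synthesis, fat use and stress; dotted lines mark a change of 2-fold. Slc2a2 has an interval from −0.15 to 0.15, Scd1 one from −0.23 to 2.22, and all 18 intervals include 0.

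Of the 18 panel genes measured, 12 lay above 0 and 6 below, and 0 had an unadjusted p under 0.05. The interval left out 2-fold in either direction for 12 of them and 1.5-fold for 6. For weak panel genes such as Slc5a1 and Pnpla3 these folds understate changes of the signal itself.

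The lists with the lowest medians were those of protein folding stress. The unfolded protein response raises chaperones and degradation factors of the endoplasmic reticulum when unfolded proteins gather there, partly through an element in their promoters (CCAAT, any 9 bases, then CCACG) to which NF-Y and ATF6 bind. Of 31 genes measured, 4 were lower at an unadjusted p under 0.05 (12.9%, against 4.02% of all genes) and 0 were higher. The median was −0.12, beside 0.01 over all genes, and 22 lay below 0. The list's mean log2 value per array ran over 9.028 to 9.483 in phloridzin livers and over 9.204 to 9.706 in STZ livers. Its SD within groups was 0.17. Creld2, a chaperone-like secreted protein, had 412, 218, 403, 356 and 226 in 0.1% phloridzin livers and 154, 311, 385, 342 and 297 in 0.5% phloridzin livers, against 1054, 369, 529, 311 and 506 in STZ livers. All 10 phloridzin livers were below the STZ median, and STZ mouse 1 was the highest. Its difference was −0.73 ± 0.25 (SE, unadjusted p = 0.00949), or −0.47 without STZ mouse 1 (unadjusted p = 0.0488). Dnajb9, a cochaperone of BiP, had a lowest, median and highest signal of 716, 1009 and 1353 in phloridzin livers against 922, 1535 and 2187 in STZ livers, a difference of −0.53 ± 0.19 (SE). Syvn1, the ubiquitin ligase of endoplasmic reticulum degradation, had 310.0, 415 and 487 in phloridzin livers against 374, 518 and 886 in STZ livers, a difference of −0.38 ± 0.16 (SE) that was −0.20 without STZ mouse 1 (unadjusted p = 0.169). Ddit3, the stress factor CHOP, differed by −0.17 ± 0.08 (SE), and the mean over its 2 probe sets by 0.00. Its second set was near background, at 13.4 in phloridzin livers and 9.49 in STZ livers. Without STZ mouse 1 the list's median was −0.03, with 2 genes lower and 1 higher, and without STZ mouse 5 it was −0.10, with 2 lower. Over 28 settings the count of lower genes ran over 1 to 6.

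The promoters of the 2 lower genes that carry the element show where it lies, in the 250 bases before the RefSeq start (GRCm38.p6), printed on the strand of the gene with the element in capitals. In Creld2 (chr15:88819396-88819645, plus strand) it reads on the opposite strand and begins 126 bases before the start, and in Syvn1 (chr19:6046326-6046575, plus strand) it begins 44 bases before.
Creld2: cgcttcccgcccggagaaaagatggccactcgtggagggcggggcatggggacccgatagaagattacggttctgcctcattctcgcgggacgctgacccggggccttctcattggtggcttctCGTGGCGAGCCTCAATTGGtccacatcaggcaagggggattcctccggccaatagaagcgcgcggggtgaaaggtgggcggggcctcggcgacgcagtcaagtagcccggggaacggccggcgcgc
Syvn1: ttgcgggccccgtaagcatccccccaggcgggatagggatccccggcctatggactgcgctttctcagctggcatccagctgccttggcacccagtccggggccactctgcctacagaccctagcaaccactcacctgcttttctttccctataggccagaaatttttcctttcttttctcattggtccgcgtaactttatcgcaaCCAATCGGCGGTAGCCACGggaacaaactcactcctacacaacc
Searched on both strands, these letters were found in 37 of 32851 RefSeq promoter windows (0.113%) and in 9 of the 28 unfolded protein response genes that have a window. Calr, Canx, Dnajc3, Ero1b, Hsp90b1, Hspa5 and Pdia6 hold them too, and none of these had an unadjusted p under 0.05. Hspa5 differed by −0.21, Hsp90b1 by −0.14 and Calr by 0.00. The window of Dnajb9, which was lower, does not hold them, and Ddit3, the other lower gene, is not among the 9. Whether the element goes with the differences was not tested.

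Most heat shock proteins also lay below 0. Of 21 measured, 3 were lower at an unadjusted p under 0.05 (14.3%, against 4.02% of all genes) and 0 higher. Of the 21, 19 lay below 0, and the median was −0.10, or −0.11 without STZ mouse 1. Genes of 1 list can move together in a mouse, so the 19 are not independent of each other. The list mean per array ran over 8.62 to 9.51 in phloridzin livers and over 8.88 to 9.42 in STZ livers. Its SD within groups was 0.33. Bag3, a cochaperone of Hsp70, had a lowest, median and highest signal of 123, 153 and 220.1 in phloridzin livers against 158, 197 and 313 in STZ livers, and the groups overlapped between 158 and 220.1. Its difference was −0.48 ± 0.16 (SE, unadjusted p = 0.00751). Hspb8, a small heat shock protein, averaged 1017 ± 126 in phloridzin livers and 1212 ± 125 in STZ livers (SD), and Dnajb4, an Hsp40 protein, averaged 408 ± 96.4 in phloridzin livers and 537 ± 123 in STZ livers. No gene of either list had an adjusted p under 0.05, and with the mean over all probe sets the counts were 2 for the unfolded protein response and 1 for heat shock.

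Most genes of plasma proteins made by hepatocytes lay above 0. Of 26 acute phase genes, 3 were higher and 1 lower at an unadjusted p under 0.05 (15.4%, against 4.02% of all genes). Of the 26, 21 lay above 0, as did 52.2% of all genes, and the median was 0.18. Per array, the list mean ran over 10.293 to 10.764 in phloridzin livers and over 10.235 to 10.666 in STZ livers. Its SD within groups was 0.14. Stat3, the transcription factor of the acute phase, averaged 863 ± 151 in phloridzin livers and 684 ± 95.3 in STZ livers (SD), a difference of 0.32 ± 0.13 (SE). Haptoglobin, Hp, averaged 7591 ± 1656 in phloridzin livers and 6157 ± 958 in STZ livers (SD), with its highest value of 11844 on the array of 0.1% phloridzin mouse 4. Itih4, a plasma protein of the inter-alpha-trypsin inhibitor family, differed by 0.22 ± 0.10 (SE). Orm3, an orosomucoid, was lower, at 17.5 ± 10.1 in phloridzin livers and 34.8 ± 10.6 in STZ livers (SD). Without 0.1% phloridzin mouse 4 the list's median was 0.12, with 1 gene higher and 1 lower, and after quantile normalisation it was 0.08. Without STZ mouse 2 it was 0.10, with 0 genes higher and 1 lower, and over 28 settings the count of higher genes ran over 0 to 5.

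Of 30 complement and coagulation genes, 29 lay above 0, with a median of 0.12. Genes of 1 list can move together in a mouse, so the 29 are not independent of each other. Per array, the list mean ran over 10.872 to 11.161 in phloridzin livers and over 10.738 to 11.159 in STZ livers. Its SD within groups was 0.12. At an unadjusted p under 0.05 there was 1 gene (3.33%, against 4.02% of all genes). That gene was C2, which averaged 557 ± 53.3 in phloridzin livers and 477 ± 31.3 in STZ livers (SD), while plasminogen, Plg, averaged 9719 ± 1718 in phloridzin livers and 8169 ± 1092 in STZ livers. Of 35 drug-metabolising enzymes, 28 lay above 0, with a median of 0.13. At that p 3 were higher and 1 lower (11.4%, against 4.02% of all genes). Their mean per array ran over 10.184 to 10.847 in phloridzin livers and over 10.228 to 10.533 in STZ livers. Cyp2c70, which makes muricholic acids in mice, averaged 5011 ± 1072 in phloridzin livers and 3888 ± 855 in STZ livers (SD). Ahr, the receptor of dioxins, averaged 276 ± 48.8 in phloridzin livers and 334 ± 25.8 in STZ livers (SD). Without STZ mouse 1 the complement median was 0.18, with 7 genes higher at that p, and over 28 settings the count ran over 0 to 7, and for drug enzymes over 0 to 5. The other higher genes, Cyp2c55 and Cyp1b1, were at 22.8 and 18.9 in phloridzin livers and near background in STZ livers. Gstm1, a glutathione transferase, was the 1 of 33 NRF2 targets with such a p (3.03%, against 4.02% of all genes). It differed by 0.25 ± 0.09 (SE) and lay above the STZ median in all 10 phloridzin livers. Without 0.1% phloridzin mouse 4 the medians of the complement and drug enzyme lists were 0.10 and 0.08, and after quantile normalisation 0.07 and 0.05. Hepatocyte markers lay on the same side as these lists: all 10 lay above 0 with a median of 0.14. That median was 0.08 without 0.1% phloridzin mouse 4 and 0.00 after quantile normalisation. The mean of these markers per array ran over 12.738 to 13.653 in phloridzin livers and over 12.547 to 12.953 in STZ livers. The ribosomal protein list, with 34 of 36 genes above 0, had means per array of 11.063 to 11.399 in phloridzin livers and 11.026 to 11.194 in STZ livers. Its median was 0.08, and 0.03 after quantile normalisation. Their part in the list values was not tested.

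Hormone and rhythm genes lay on both sides of 0. In the growth hormone and IGF list the median was 0.11, and 11 of 17 genes lay above 0. At an unadjusted p under 0.05, 2 were lower (11.8%, against 4.02% of all genes). Bcl6, a repressor with a male pattern in mouse liver, had 305, 233, 238, 235 and 131 in 0.1% phloridzin livers and 191, 109, 155, 56.8 and 153 in 0.5% phloridzin livers, against 231, 290.2, 417, 275 and 185 in STZ livers. The lower values were mostly those of the 0.5% group. Onecut1, a hepatocyte transcription factor also called HNF6, had a median of 12.4 in phloridzin livers and 32.1 in STZ livers, with its highest value of 119 in STZ mouse 1. Its difference of −0.69 was −0.34 without that mouse (unadjusted p = 0.192). Without that mouse, or without 0.1% phloridzin mouse 4, 1 gene of the list was lower at that p. Of 21 clock genes, 39 of amino acid breakdown and the urea cycle, 34 of the interferon response and 31 of the proteasome, 0 had such a p, with medians of −0.10, −0.01, −0.04 and −0.03. Of the 21 clock genes, 14 lay below 0, and their median was close to that of the heat shock proteins. The clock median was −0.02 without STZ mouse 1. Dbp, a clock output factor, averaged 1057 ± 301 in phloridzin livers and 1361 ± 500.0 in STZ livers (SD), a difference of −0.34 that was −0.17 without STZ mouse 1. Histidine ammonia-lyase, Hal, averaged 1111 ± 271 in phloridzin livers and 1426 ± 348 in STZ livers.

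Markers of other liver cells gave few differences. Of 45 gene lists in all, 15 of them of cell types, 28 held 0 genes at an unadjusted p under 0.05, and 29 of the 835 genes in the lists had one (3.47%, against 4.02% of all genes tested). Kupffer cell and macrophage genes had 0 of 16, sinusoidal endothelium 0 of 14, and stellate cell and fibrosis genes 0 of 16, with medians of 0.05, 0.08 and 0.05. The summed signal of the Kupffer list was 4490 to 6641 in phloridzin livers and 4626 to 6234 in STZ livers. In the neutrophil list Mmp8, a collagenase, was 1 of 8 with such a p, but its means of 12.7 in phloridzin livers and 3.97 in STZ livers were near background. So were those of Sox9, a bile duct factor, at 12.7 in phloridzin livers and 6.60 in STZ livers. Both STZ means were under the filter of 8.34, so Mmp8 and Sox9 were kept only through their phloridzin arrays. The other 2 probe sets of Sox9 differed by −0.02 and −0.09. The other 3 bile duct genes measured lay below 0, and that list's median was −0.06. The Wnt target Lgr5, a marker of hepatocytes next to the central vein, averaged 37.9 ± 8.02 in phloridzin livers and 27.8 ± 7.66 in STZ livers (SD). In bulk RNA, fewer cells of a type and less RNA per cell cannot be told apart.

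**Figure D4:**
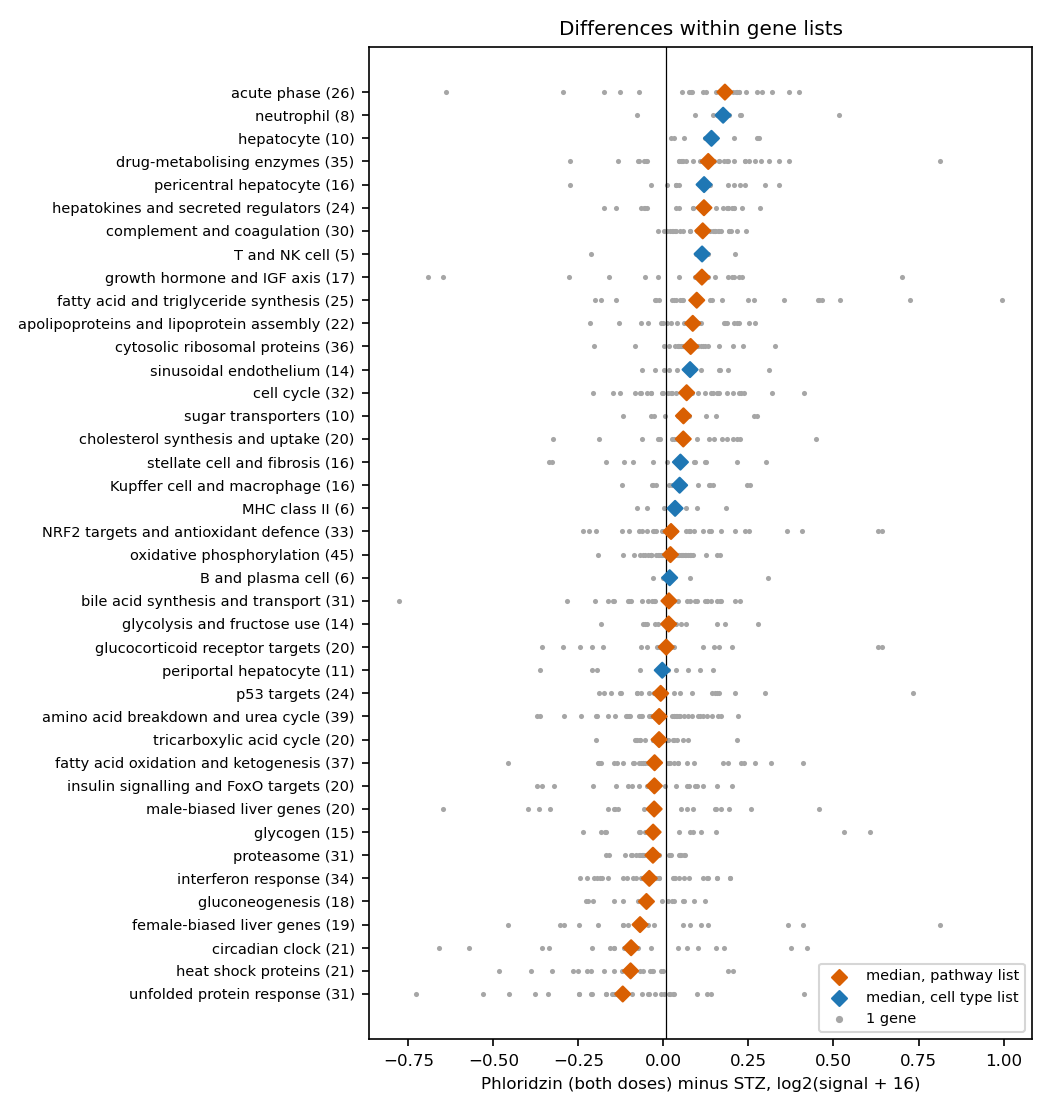
Differences (phloridzin at both doses minus STZ, log2 of signal plus 16) in the 40 gene lists with at least 5 genes measured; grey points are genes, diamonds are list medians, and the number measured stands after each name. The vertical line is the median of all genes; list medians run from −0.12 for the unfolded protein response to 0.18 for the acute phase, and single genes spread far wider.

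Mice of 1 group differed strongly from each other. The first principal component over the 15 arrays carried 33.1% of the variance, against 10.2% for the second. On that component 5 arrays lay together at the low end, with scores of −27.4 and −23.4 for mice 1 and 2 of the 0.1% group, −25.6 and −18.9 for mice 2 and 4 of the 0.5% group, and −24.3 for STZ mouse 1. The other arrays ran over −7.58 to 22.2. The same 5 arrays held the 5 highest signals of Srebf1, Fasn, Scd1 and Acacb, and of Hsd3b5, Cyp4a12a, Serpina12 and Slco1a1. They also held the 5 lowest signals of Cyp4a14, Nnmt, Igfbp1, Sult1e1, Mt1, Mt2, Cyp39a1, G6pc, Ppargc1a and Foxo1. These genes were chosen after their values were seen, and no test was made between arrays picked this way.

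Hsd3b5, a steroid reductase typical of male liver, varied most, with a within-group SD of 2.64 on the log2 scale, where the median gene had 0.23. Its signals were 2669, 629, 65.5, 199 and 8.45 in 0.1% phloridzin livers and 11.9, 2962, 416, 1485 and 106 in 0.5% phloridzin livers, against 3504, 539, 137, 65.1 and 21.3 in STZ livers. Each group thus held levels from near or under 21.3 up to 2669 or more. Cyp4a14 had 1014, 964, 4055, 4074 and 6103 in 0.1% phloridzin livers and 4737, 734, 2491, 807 and 3877 in 0.5% phloridzin livers, against 48.9, 4394, 2710.1, 2825 and 5867 in STZ livers. Its lowest value in every group fell on 1 of the 5 arrays. Igfbp1 had 1865, 1315, 5508, 5484 and 8074 in 0.1% phloridzin livers and 6082, 1514, 5282, 2098 and 9259 in 0.5% phloridzin livers, against 841, 4407, 4610.4, 3792 and 5722 in STZ livers. The difference of Hsd3b5 was 0.26, or 1.22 without STZ mouse 1. Mt1, a metallothionein that binds zinc and copper, had a lowest, median and highest signal of 958, 6882 and 9286 in phloridzin livers against 245, 5124 and 5570.4 in STZ livers. Its difference of 0.64 was −0.22 without STZ mouse 1. The next largest within-group SDs were those of Elovl3 (1.85), Cyp4a14 (1.84), Cyp4a12a (1.82), the oestrogen sulfotransferase Sult1e1 (1.79), the adipokine gene Serpina12 (1.70) and the leptin receptor gene Lepr (1.67).

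With the first component as a covariate, an alternative added after seeing the data, 1 gene was called: Gtpbp8, at −0.54 with a limma adjusted p of 0.0196, and 865 genes had an unadjusted p under 0.05. In that fit the difference of Scd1 was 0.97 (unadjusted p = 0.034), that of Fasn 0.70 (unadjusted p = 0.0157), that of Acacb 0.50 (unadjusted p = 0.000815) and that of Cyp7a1 −0.75 (unadjusted p = 0.0168). After adjustment the limma p was 0.714 for Scd1, 0.655 for Fasn, 0.558 for Acacb and 0.664 for Cyp7a1. The component was made from the same signals, so this fit is not independent of them.

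**Figure D5:**
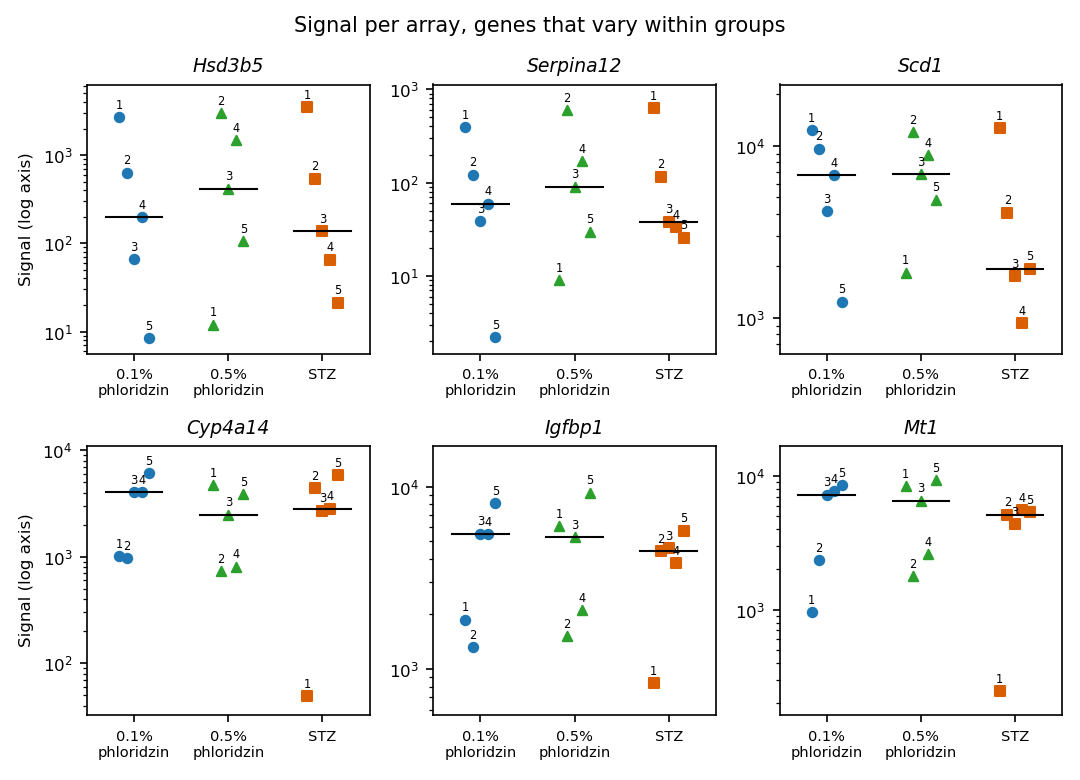
Signal (log axis) of 6 genes on each array, with 0.1% phloridzin as circles, 0.5% phloridzin as triangles, STZ as squares, the mouse number above each point and a bar at the group median. Mice 1 and 2 of the 0.1% group, 2 and 4 of the 0.5% group and STZ mouse 1 are high in Hsd3b5, Serpina12 and Scd1 and low in Cyp4a14, Igfbp1 and Mt1.

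Pooling the doses rests on how alike they were. In the 3-group fit, 0.5% minus 0.1% phloridzin gave 0 of 12946 genes at an adjusted p under 0.05 (percent called 0), with a smallest adjusted p of 0.879, and 698 at an unadjusted p under 0.05 (5.39%), 476 higher (3.68%) and 222 lower (1.71%) at 0.5%. The share of higher genes among these was 68.2% with the deposited scaling, 62.1% after quantile normalisation and 56.2% after centring. The median size of the dose difference was 0.11, with an interval for the middle gene of 0.31 either side. For such a gene a dose difference of the median size could not be seen. The 3 smallest p were those of 2610524H06Rik, Lin54 and Brpf3. Lin54, a DNA-binding subunit of the DREAM complex that controls the cell cycle, had 115, 104, 106, 91.7 and 111 in 0.5% phloridzin livers and 77.6, 58.5, 65.5, 65.9 and 79.0 in 0.1% phloridzin livers, with 73.2, 117, 84.9, 88.2 and 86.7 in STZ livers. The doses did not overlap, STZ livers covered values of both, and the pooled difference was −0.05 ± 0.14 (SE), or −0.11 without STZ mouse 1 and −0.01 without 0.1% phloridzin mouse 4. Brpf3, a subunit of a histone acetyltransferase complex, differed between doses by 0.59 ± 0.13 (SE) and 2610524H06Rik, with no signal over 23.5 on any array, by 0.68 ± 0.14 (SE), both at an adjusted p of 0.879. Bcl6 and Stat3, named above, were lower at 0.5% than at 0.1% by −0.76 ± 0.27 and −0.32 ± 0.13 (SE, adjusted p of 0.879 for each).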

How the data were processed

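Liver RNA of 15 mice, 1 array each, was compared. The deposited values are intensity, on a linear scale, 1 per probe set and array. Their 2% trimmed mean was 100.0 on all 15 arrays; the software that made them: not given in the sources used here. Left out were 64 controls, 9160 probe sets without a gene and 932 with several, of 45101. The remaining 34945 covered 18193 genes by the platform annotation, and 34741 matched the reference gene table by Entrez identifier.

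Each gene was represented by its brightest probe set on average. Genes below the 40th percentile of all probe set means (8.34 in signal) were dropped, which left 12946. After adding 16 and taking log2, group means were fitted by limma 3.58.1 under R 4.3.3 (13 residual and 4.48 prior degrees of freedom), two-sided, with Benjamini-Hochberg adjustment over all genes kept. The dose difference came from 3 group means. This scale understates changes of weak genes. The fit was tested on simulated data. Precision is set by how many arrays there are and by how much each gene varies between mice.

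The comparison, gene lists, panel and alternatives were chosen with earlier results of these data known, so counts in the lists are not independent support. Genes named were the 20 of smallest p (with 0 called), list members of smallest p, a panel of 18 measured genes and the 3 of smallest p between doses; others are said to be chosen after their values were seen, or have groups without overlap. Promoter sequences were from RefSeq (GRCm38.p6). Figures were drawn with matplotlib 3.10.9.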

Additional observations from a re-analysis of the deposited data

Results flagged for a closer look

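For 95 genes, each group was searched for an array that stood far from its neighbours. The measure was the gap to the nearest other array over the group's whole range on the log2 scale. For 4 spike-in controls the same ratio was taken on linear signals, in the phloridzin arrays only and at the high end only. Of 194 groups searched, 24 had such an array. The rule flags about 1 in 20 by chance, but many of the genes were picked from these same data, some for their spread within groups. The count therefore cannot be compared with that rate. STZ mouse 1 accounted for 9 of these: the ratio was 0.92 for Mt1, 0.787 for Mt2, 0.829 for Cyp4a14, 0.784 for Igfbp1, 0.795 for Nnmt, 0.738 for Ppargc1a and 0.717 for Icam1, all with mouse 1 lowest. With mouse 1 highest it was 0.809 for Fasn and 0.714 for Srebf1. These genes are not independent of each other.

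The array of 0.1% phloridzin mouse 4 was highest for spike-ins bioB (0.876), bioC (0.876), bioD (0.875) and cre (0.845), and for Alb (0.617) and Acaa1b (0.569). The other arrays that stood apart were mouse 3 of the 0.1% group, low for Icam1 (0.662), and mouse 5, low for Srebf1 (0.466). In the 0.5% group mouse 1 was low for Osgin1 (0.487) and Slc5a1 (0.561), mouse 3 was high for Hspb8 (0.476) and mouse 5 was high for C2 (0.635). Among STZ livers mouse 2 was low for Ap1g2 (0.847), and mouse 4 was high for Avpr1a (0.896) and low for 2610524H06Rik (0.75).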

How the results depend on the processing

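Over 11 other choices of scaling, filter, pseudocount, probe sets, array weights, prior and spread, phloridzin against STZ gave 0 called genes, with a smallest adjusted p between 0.137 and 1, and over 10 the dose difference gave 0, with 0.311 to 0.99. Leaving out 1 array at a time gave 0 calls in both. The unadjusted counts then ran over 470 to 572 for phloridzin against STZ and over 544 to 850 between doses. With the first principal component as a covariate, added after seeing the data, phloridzin against STZ gave 1 call and 865 genes at an unadjusted p under 0.05, and the doses gave 1143. Without both STZ mouse 1 and 0.1% phloridzin mouse 4, also added later, there were 0 calls and 559 genes. The labels do not say whether the replicate numbers pair mice. Of 15 pairs of arrays with the same number, 9 deviated together (r over 0.1), over a range from −0.406 to 0.497. Pairs with different numbers were not examined, so these values cannot tell. With the replicate number as a block 0 genes were called and 605 had an unadjusted p under 0.05. Of 95 genes followed through these settings, 23 changed sign in at least 1 setting, among them Pck1, Slc2a2 and Txnip, whose differences are near 0, and Cyp4a14 and Igfbp1 without STZ mouse 1. Gtpbp8 was −0.18 with the mean of its probe sets. For the middle gene, differences under the 1.20-fold of its interval are below what 15 arrays resolve. Genes that vary less between mice have narrower intervals, and genes that vary more have wider ones.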
